A study of Mus musculus with 6 samples.

Results

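The genes described here encode the proteins that assemble actin filaments and take them apart: 40 genes for cofilins, profilins, the Arp2/3 complex, formins, capping proteins, monomer-binding proteins and their partners. They were chosen by name, not by a measured value, as the rows of the gene table that carry these symbols. Earlier results of these data were known when the list was made. All 40 were found among the 48709 genes of the table. RNA of embryonic C57BL6/J mouse hearts was sequenced as polyA libraries in 2 genotypes. The double knockout group (3 libraries) carried RBPMS flox/flox and RBPMS2 flox/flox together with the Cre transgene named XML Cre, which per the series deletes both genes in heart muscle cells (cardiomyocytes). The control group (3 libraries) carried the same floxed alleles in littermates, with no Cre given in their genotype. RBPMS and RBPMS2 are RNA-binding proteins of the RRM family. Cre went with the deletion, so an effect of Cre itself cannot be told apart from that of losing the genes. The promoter behind the Cre, the embryonic stage, and whether each library came from 1 animal are details that the labels used here do not state. The p-values below therefore measure the spread between these libraries.

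Actin filaments grow at their barbed end and lose subunits at their pointed end. Nucleators start filaments: the Arp2/3 complex as branches on existing filaments, formins as straight ones. Profilin delivers monomers to growing ends, Ena/VASP proteins keep ends growing, and capping protein stops growth. ADF and cofilin sever and disassemble old filaments with help from Aip1, coronins, twinfilins and cyclase-associated proteins, and thymosins hold free monomers in reserve. In heart muscle these proteins act at the thin filaments of the sarcomere, whose barbed ends are capped at the Z-disc, as well as in the cytoskeleton of the other cells.

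Values are normalised read counts: reads per gene scaled by 1 factor per library by the authors. They summed to between 19770390 and 20215282 per library. Log2 fold changes take log2(value + 1), subtract the control mean from the double knockout mean and carry limma's standard error (SE, after ±). A gene was called at a Benjamini-Hochberg adjusted p under 0.05 over the 26747 genes tested. Rbpms was at 721, 699 and 670 in double knockout libraries 1 to 3, against 3551, 3853 and 3956 in controls 1 to 3. Rbpms2 was at 1676, 1257 and 1429 in double knockout libraries, against 2444, 2571 and 2716 in controls, so both deleted genes were lower in each double knockout library. Tnnt2 (cardiac troponin T), a defining gene of heart muscle, was at 44660 to 46568 in double knockout and 49815 to 52093 in control libraries. Library 3 of each genotype had a male pattern (Xist at 20 in the double knockout and 6 in the control, against at least 19501 in the other libraries). Among protein-coding genes, the deviation of a library followed GC content, with Spearman rank correlations of 0.13, -0.18 and -0.59 in double knockout libraries 1 to 3 and 0.28, 0.22 and 0.40 in controls 1 to 3. This trend ran with genotype, so corrected values, from which each library's dependence on GC content and transcript length had been subtracted, are given below for the called members and for some of the others. Of all genes tested, 4.86% were called, 2.31% higher and 2.55% lower in the double knockout. All 40 members had a mean of 200 or more, and of the 10727 genes at that level 8.06% were called, 3.46% higher and 4.61% lower.

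Of the 40 members, 7 were called (17.5%, beside the 4.86% and 8.06% above): 2 rose (Pfn2 and Gsn) and 5 fell (Dstn, Evl, Vasp, Pfn1 and Capzb). The called genes lie on chromosomes 2 (Dstn and Gsn), 3 (Pfn2), 4 (Capzb), 7 (Vasp), 11 (Pfn1) and 12 (Evl). Log2 fold changes ran from -0.54 (Evl) to 0.41 (Pfn2), and the median was -0.05, beside 0.02 over all genes tested. The genotypes did not overlap in 16 of the 40 members; this held for 21.7% of all genes tested and 32.3% of the genes at 200 or more. Together the members made up 0.632%, 0.661% and 0.639% of all values in double knockout libraries 1 to 3, against 0.680%, 0.672% and 0.695% in controls 1 to 3. Members with high values weigh most in these shares, among them Dstn, with a mean of 11250 in the double knockout and 16203 in the control. The shares therefore do not describe the typical member. All 40 genes passed the filter on low values, with library values between 239 and 17103. In whole hearts, fewer cells of a type and less RNA per cell cannot be told apart. The calls differed in how well they held. Only Dstn and Evl were called with each library left out in turn. Without the robust option of limma's variance moderation only Dstn was (limma adjusted p = 0.0366, background 1.31%, 0.538% higher and 0.77% lower). In the corrected values without that option 9 were (2 higher and 7 lower), beside 1307 of 26747 genes (556 higher and 751 lower). Corrected values with the robust option gave 10 called members, 2 higher and 8 lower, among them all 7 named above (background 5.78%, 2.51% higher and 3.27% lower). With both libraries numbered 3 left out, which leaves 2 per genotype, none of the 7 was called (limma adjusted p from 0.198 to 0.496). In that setting 9 members were at an unadjusted p under 0.05 (limma), beside 2686 of 27639 genes. The fold changes kept their signs: -0.49 (Dstn), -0.51 (Evl), -0.30 (Vasp), -0.27 (Capzb), -0.23 (Pfn1), 0.38 (Pfn2) and 0.25 (Gsn). The deleted gene Rbpms2 was not called there either (-0.79, limma adjusted p = 0.142), while Rbpms was (-2.38, limma adjusted p = 0.00102).

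**Figure D1:**
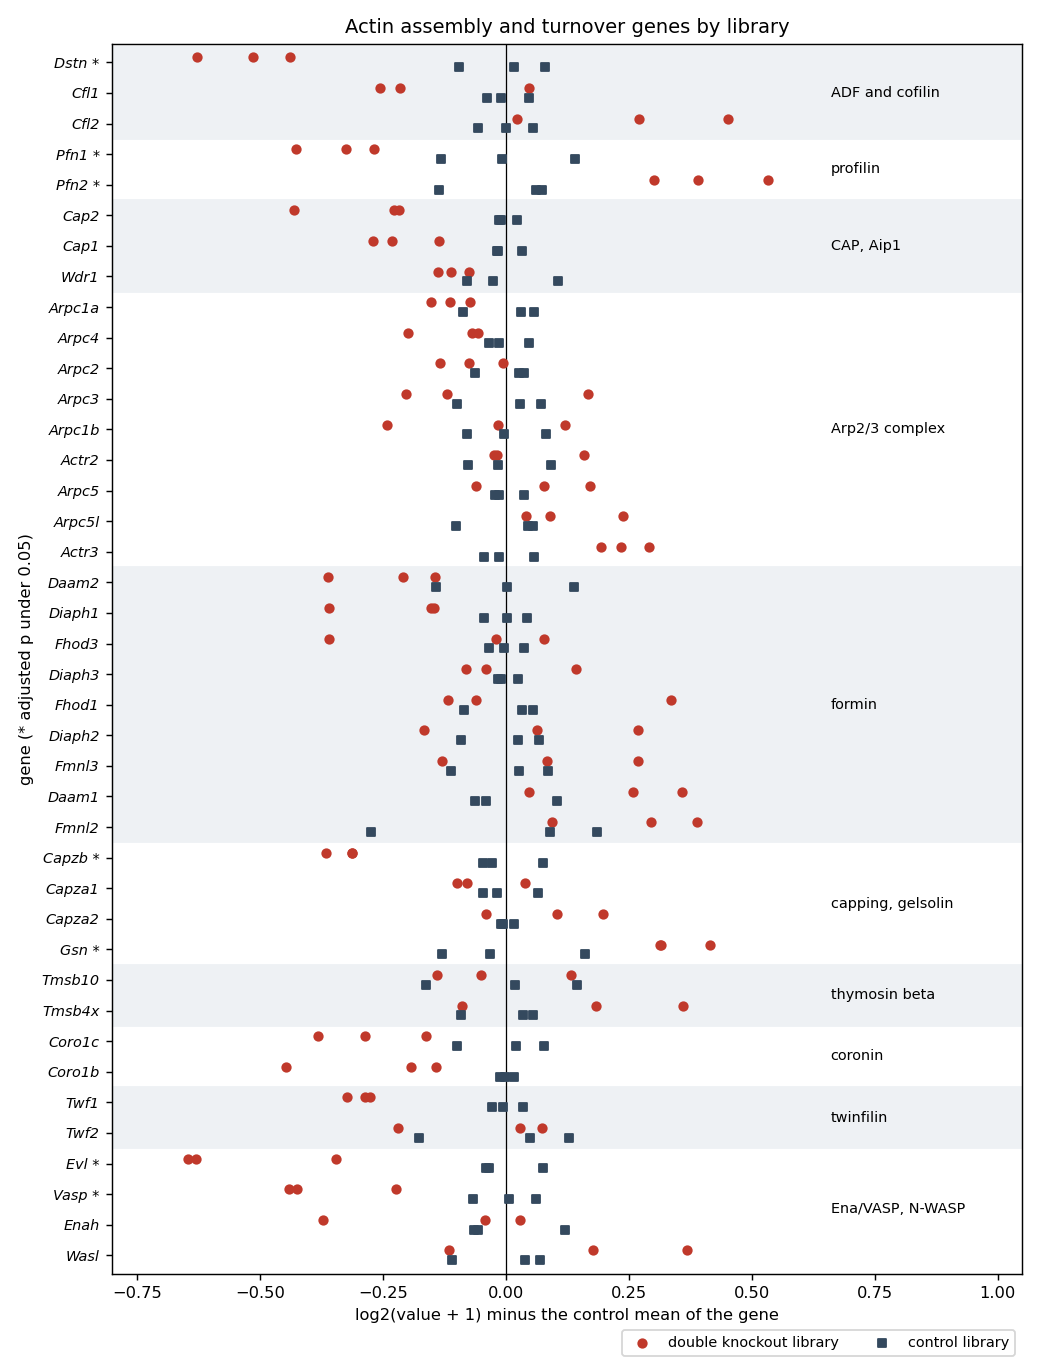
Each row is 1 gene, grouped by role; points are libraries (3 double knockout, 3 control), placed by log2(value + 1) minus the mean of the control libraries of that gene, and an asterisk marks an adjusted p under 0.05. The double knockout points of Dstn and Evl lie left of all control points and those of Pfn2 and Gsn lie right of them, while the mean differences of the 9 Arp2/3 genes lie between -0.11 and 0.24.

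Per kilobase, the most abundant members were the monomer-binding thymosins and the disassembly factors Dstn and Cfl1. Levels between genes are compared per kilobase of the longest annotated transcript. The lengths used were 864 bases for Tmsb4x, 690 for Tmsb10, 1911 for Dstn, 2354 for Cfl1, 1997 for Pfn1 and 1439 for Arpc2. A shorter transcript in use would raise the level of its gene, so the order given here depends on this choice. Which transcripts were present was not tested. Tmsb4x (thymosin beta 4) had the highest level, 13264 per kilobase in double knockout and 11862 in control hearts. Tmsb10 followed with 8819 per kilobase in double knockout and 8945 in control hearts. Destrin (Dstn) had 5887 per kilobase in double knockout and 8479 in control hearts, and Cfl1 had 5402 per kilobase in double knockout and 5934 in control hearts. The libraries of Dstn and Cfl1 overlapped in the double knockout (5479 to 6249 per kilobase for Dstn, 4969 to 6130 for Cfl1) but not in the control (7923 to 8950 per kilobase for Dstn, 5774 to 6132 for Cfl1). In the control, Tmsb10 (7965 to 9845 per kilobase) and Dstn overlapped, so their order there is not resolved. Pfn1 came next, at 2996 per kilobase in double knockout and 3801 in control hearts, then Arpc2, at 2969 per kilobase in double knockout and 3120 in control hearts. Their libraries overlapped in the double knockout, so the order of Pfn1 and Arpc2 is not resolved there. The lowest level was that of the formin gene Diaph2, 39.5 per kilobase in double knockout and 37.8 in control hearts. How reads with several matches were counted is not stated in the labels, so values of small, highly expressed genes that may have processed copies in the genome, such as Tmsb10 and Cfl1, carry that uncertainty.

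The ADF and cofilin genes did not move together. Dstn (ENSMUSG00000015932; chromosome 2, 143915320 to 143943324, plus strand, mm10) encodes destrin, also called ADF, which binds monomers and disassembles filaments. It had 10470, 11942 and 11337 in double knockout libraries 1 to 3, against 16367, 15140 and 17103 in control libraries 1 to 3. Every double knockout library was below every control library. The mean was 11249.7 ± 739.9 in the double knockout and 16203 ± 992 in the control (SD, n = 3 each), giving -0.53 ± 0.09 on the log2 scale (limma adjusted p = 0.000877). The corrected fold change was -0.57 (adjusted p = 5.21e-06), and with single libraries left out the adjusted p reached at most 0.0222. Cfl1, the cofilin of most non-muscle cells, had 12023, 14429 and 11696 in double knockout libraries, against 13876, 13593 and 14435 in controls. These overlapped, and the log2 difference was -0.14 ± 0.09 (limma adjusted p = 0.424). Cfl2, the cofilin of muscle, had 3736, 4434 and 5026 in double knockout libraries, against 3537, 3820 and 3680 in controls. The libraries overlapped at 0.25 ± 0.10 (limma adjusted p = 0.17), and the corrected fold change was 0.07 (adjusted p = 0.528).

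The 300 bases around the annotated start of Dstn (250 before, 50 after; RefSeq, GRCm38.p6, plus strand, chr2:143915081-143915380) are shown because it is the member whose fall held in most settings. Capitals mark GC boxes (GGGCGG, or CCGCCC on the other strand), the site of Sp1-type factors.
Dstn: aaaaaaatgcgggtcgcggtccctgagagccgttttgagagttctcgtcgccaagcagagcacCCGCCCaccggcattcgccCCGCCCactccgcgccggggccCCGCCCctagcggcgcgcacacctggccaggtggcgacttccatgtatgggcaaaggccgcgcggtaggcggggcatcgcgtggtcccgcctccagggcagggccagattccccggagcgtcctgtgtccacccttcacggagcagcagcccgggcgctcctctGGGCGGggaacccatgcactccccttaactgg
The window holds 4 GC boxes, and a GC box was found in 35.7% of the 32851 promoter windows of the same length. Among the members, 35 of 40 had a window in the RefSeq table and 29 of these had a GC box in at least 1 of their windows. Counted by window, a GC box lay in 34 of the 42 member windows. The CArG box, the site of serum response factor, was searched on both strands too. It lay in 1.63% of all windows, in 1 of the 42 member windows (1 of the 35 matched members) and in 0 of the 7 called members.

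The profilin genes moved in opposite directions. Pfn1, the profilin of most cells, had 6280, 6042 and 5630 in double knockout libraries 1 to 3, against 7530, 6902 and 8338 in controls 1 to 3. This came to -0.34 ± 0.09 on the log2 scale (limma adjusted p = 0.0323). Pfn2, a profilin known mainly from the brain, had 797, 848 and 937 in double knockout libraries, against 675, 589 and 681 in controls. Here the log2 difference was 0.41 ± 0.10 (limma adjusted p = 0.0172). In both genes all libraries of one genotype lay on one side of the other. Corrected, Pfn1 was at -0.22 (adjusted p = 0.0335), over 1.5 times smaller, and Pfn2 at 0.47 (adjusted p = 0.00229). The Pfn1 call was lost without double knockout 3, control 1 or control 3 (limma adjusted p up to 0.237), and the Pfn2 call without double knockout 3 or any 1 of the controls (adjusted p up to 0.107). Both were lost without the robust option (adjusted p = 0.118 for Pfn1 and 0.0886 for Pfn2, limma). The log2 ratio of Pfn2 over Pfn1 was -2.98, -2.83 and -2.59 in double knockout libraries and -3.48, -3.55 and -3.61 in controls. The difference of 0.75 was the largest of the 9 paralogue ratios compared (exact permutation test, two-sided p = 0.1, the smallest that 3 against 3 libraries allow; adjusted over the 9 ratios, p = 0.3).

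The promoter windows of the profilin pair are set side by side because their genes moved apart (RefSeq, GRCm38.p6, both on the minus strand; Pfn1 at chr11:70654601-70654900, Pfn2 at chr3:57847708-57848007). Capitals mark GC boxes and, in Pfn1, 1 MCAT element (CATTCC, or GGAATG on the other strand), the site of TEAD factors.
Pfn1: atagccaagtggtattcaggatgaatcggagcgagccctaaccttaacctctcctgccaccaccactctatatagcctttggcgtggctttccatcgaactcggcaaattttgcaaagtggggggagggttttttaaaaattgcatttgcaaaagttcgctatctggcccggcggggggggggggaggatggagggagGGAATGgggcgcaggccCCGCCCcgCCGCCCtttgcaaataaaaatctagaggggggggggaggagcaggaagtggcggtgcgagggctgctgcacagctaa
Pfn2: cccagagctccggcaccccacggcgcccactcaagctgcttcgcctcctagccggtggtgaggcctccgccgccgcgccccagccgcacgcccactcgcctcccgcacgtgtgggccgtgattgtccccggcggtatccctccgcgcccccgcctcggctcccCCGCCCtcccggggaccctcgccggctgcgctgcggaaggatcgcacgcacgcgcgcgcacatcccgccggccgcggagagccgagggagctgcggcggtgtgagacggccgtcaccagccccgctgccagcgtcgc
Pfn1 has 2 GC boxes and a window of 57% GC, and Pfn2 has 1 GC box in a window of 77.7% GC. An MCAT element lay in 14.7% of all windows, in 5 of the 42 member windows and in windows of 4 of the 35 matched members.

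Other paralogue pairs were compared in the same way. Dstn over Cfl1 was at -0.20, -0.27 and -0.04 on the log2 scale in double knockout libraries and at 0.24, 0.16 and 0.24 in controls, below 0 in every double knockout library and above 0 in every control. Cfl2 over Cfl1 was at -1.69, -1.70 and -1.22 in double knockout libraries and at -1.97, -1.83 and -1.97 in controls. Genotypes differed by -0.39 in Dstn over Cfl1 and by 0.39 in Cfl2 over Cfl1, with no overlap (exact permutation test, two-sided p = 0.1 for both, the smallest possible; adjusted p = 0.3). The difference of Cfl2 over Cfl1 was 0.16 in the corrected values and 0.23 without double knockout 3. In the other 6 pairs the genotypes overlapped: differences ran from -0.17 for Tmsb10 over Tmsb4x to 0.26 for Twf2 over Twf1. In the corrected values Twf2 over Twf1 was at 0.45 and Cap2 over Cap1 at -0.14, against -0.08 as deposited, both without overlap (exact permutation test, two-sided p = 0.1). Corrected differences were smaller in Tmsb10 over Tmsb4x (-0.03), Capza2 over Capza1 (0.04, against 0.13 as deposited) and Arpc5l over Arpc5 (0.01, against 0.06 as deposited).

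**Figure D2:**
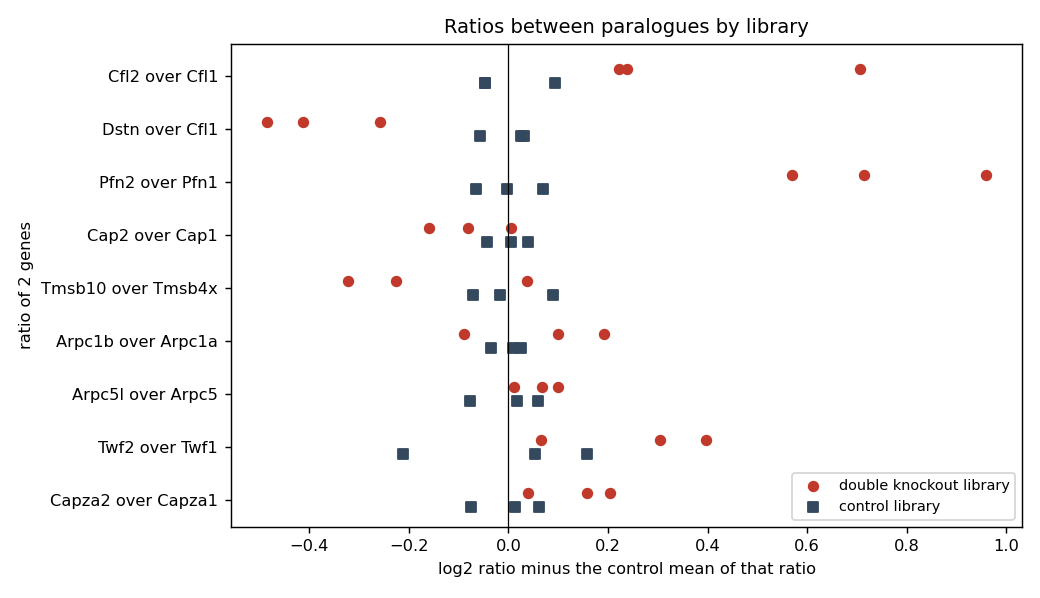
Each row is the log2 ratio of 2 paralogues, drawn per library (3 double knockout, 3 control) minus the control mean of that ratio. The double knockout libraries stand apart in the first 3 rows, Cfl2 over Cfl1, Dstn over Cfl1 and Pfn2 over Pfn1, and overlap with the controls in the other 6 on these deposited values.

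The Ena/VASP family binds profilin and barbed ends and keeps filaments growing. Of its 3 genes, 2 were called, both lower in the double knockout. Beside this, 4.86% of all genes tested and 8.06% of the genes at 200 or more were called. Evl had 846, 694 and 686 in double knockout libraries 1 to 3, against 1045, 1133 and 1049 in controls 1 to 3, with no overlap. Its mean was 742 ± 90.2 in the double knockout and 1076 ± 49.7 in the control (SD, n = 3 each), or -0.54 ± 0.10 on the log2 scale (limma adjusted p = 0.00202; 0.0501 without the robust option). Vasp had 2329, 2003 and 2024 in double knockout libraries, against 2596, 2729 and 2834 in controls, with no overlap. Vasp was at -0.36 ± 0.09 (limma adjusted p = 0.0203), a call lost without double knockout 3 or any 1 of the controls (adjusted p up to 0.146) and without the robust option (adjusted p = 0.0827). The corrected fold changes were -0.42 for Evl (adjusted p = 0.0025) and -0.25 for Vasp (adjusted p = 0.0263). That of Enah was -0.24 (adjusted p = 0.0651), close to the value of Vasp. Enah, the gene of Mena, had 4456, 3374 and 4237 in double knockout libraries, against 4177, 4748 and 4197 in controls, which overlapped (-0.13 ± 0.10, limma adjusted p = 0.52). Wasl encodes N-WASP, which activates Arp2/3 rather than binding barbed ends, and was at 0.14 ± 0.11 (limma adjusted p = 0.502). An exon of Evl overlaps a Degs2 exon on the opposite strand by 278 bases, the largest such overlap. The labels do not state whether counting used strand. Degs2 had 115, 117 and 89 in double knockout and 112, 91 and 81 in control libraries, well under the values of Evl and with the genotypes overlapping.

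Evl has 2 annotated starts, and the first window is shown as the strongest faller of the family (RefSeq, GRCm38.p6, plus strand, chr12:108554470-108554769). Capitals mark 3 GC boxes and 2 MCAT elements.
Evl: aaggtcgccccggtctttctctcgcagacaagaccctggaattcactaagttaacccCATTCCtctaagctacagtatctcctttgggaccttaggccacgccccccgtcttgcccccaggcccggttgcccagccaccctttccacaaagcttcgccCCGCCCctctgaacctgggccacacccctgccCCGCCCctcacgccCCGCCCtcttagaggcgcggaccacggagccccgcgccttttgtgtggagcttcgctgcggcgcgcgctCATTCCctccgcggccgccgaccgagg
The second window of Evl, at chr12:108605516-108605815, held 1 MCAT element and no GC box, and the window of Vasp held neither.

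Of the capping genes only the beta subunit was called. Capzb encodes the beta subunit of CapZ, which caps barbed ends and anchors thin filaments at the Z-disc. It had 3921, 3918 and 3775 in double knockout libraries 1 to 3, against 4770, 4714 and 5128 in controls 1 to 3. The genotypes did not overlap, and the log2 fold change was -0.33 ± 0.08 (limma adjusted p = 0.0228). The alpha subunit genes were at -0.05 ± 0.08 (Capza1) and 0.09 ± 0.09 (Capza2), with limma adjusted p of 0.8 and 0.621. The corrected value of Capza1 was -0.14 and that of Capza2 was -0.10, of the other sign. Gsn encodes gelsolin, a calcium-activated protein that severs and caps filaments. It had 2865, 2858 and 3068 in double knockout libraries, against 2251, 2573 and 2103 in controls, with no overlap. That is 0.35 ± 0.09 on the log2 scale (limma adjusted p = 0.0303). The call of Capzb was lost without double knockout 3, control 1 or control 3 (adjusted p up to 0.166) and without the robust option (adjusted p = 0.0564); that of Gsn was lost without double knockout 1 or 3 or control 1 or 3 (adjusted p up to 0.225) and without the robust option (adjusted p = 0.11). Corrected, Capzb was at -0.26 (adjusted p = 0.00906) and Gsn at 0.46 (adjusted p = 0.0157). Gelsolin is also made by fibroblasts, and the 5 fibroblast markers summed to 15977 to 32027 in double knockout libraries, against 16377 to 23762 in controls, with 0 of 5 called and none at 0. Their part in the Gsn value was not tested.

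**Figure D3:**
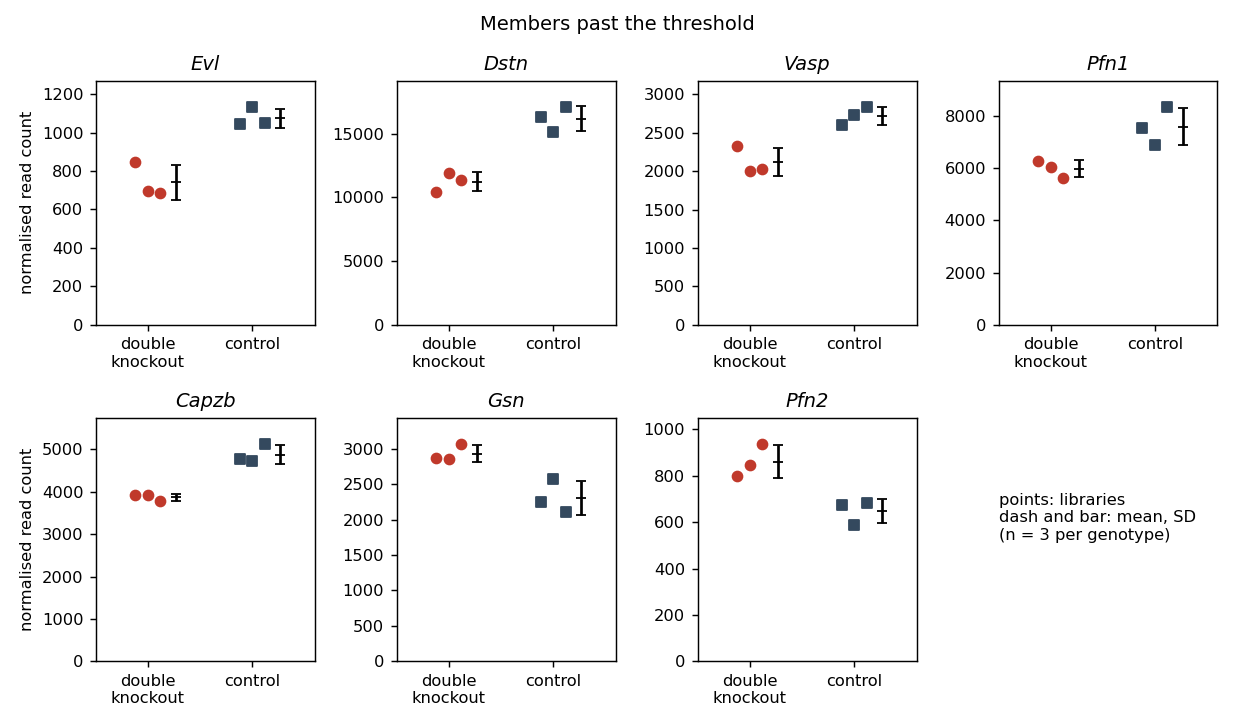
Normalised read counts of the 7 called members, with 1 point per library and the mean with SD beside them (n = 3 per genotype); axes start at 0. Evl, Dstn, Vasp, Pfn1 and Capzb are lower and Gsn and Pfn2 higher in every double knockout library than in every control library.

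None of the 7 genes of cyclase-associated proteins, Aip1, coronins and twinfilins was called on the deposited values (limma). Of the 7, 5 were at an unadjusted p under 0.05 (limma), beside 5008 of the 26747 genes tested. Twf1, a twinfilin that binds monomers and barbed ends, had 784, 759 and 779 in double knockout libraries, against 931, 973 and 946 in controls. It was just outside the threshold (-0.30 ± 0.08, limma adjusted p = 0.0501), and the genotypes did not overlap. A lack of overlap held for 32.3% of the genes at 200 or more. Cap2, the cyclase-associated protein of striated muscle, had 4322, 3729 and 4295 in double knockout libraries, against 4980, 4989 and 5108 in controls (-0.29 ± 0.09, limma adjusted p = 0.0549). Both were called in the corrected values, Twf1 at -0.37 (adjusted p = 0.00343) and Cap2 at -0.31 (adjusted p = 0.00643). So was Coro1c, a coronin of branched filaments, with 3035, 2785 and 2606 in double knockout libraries, against 3170, 3582 and 3446 in controls (-0.28 ± 0.09, limma adjusted p = 0.0801; corrected, -0.25 and adjusted p = 0.0279). Cap1 and Coro1b also had no overlap between genotypes, at -0.21 ± 0.08 and -0.26 ± 0.09 (limma adjusted p = 0.157 and 0.116). Wdr1, the gene of Aip1, which helps cofilin to take filaments apart, had 5495, 5641 and 5398 in double knockout libraries, against 5620, 6396 and 5830 in controls (-0.11 ± 0.08, limma adjusted p = 0.511). Twf2 had 669, 690 and 563 in double knockout libraries, against 717, 580 and 678 in controls, with overlap (-0.04 ± 0.11, limma adjusted p = 0.879). The corrected fold change of Twf2 was above 0, at 0.081, and its sign also turned without double knockout 3 or control 1.

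The Arp2/3 complex, whose 7 subunits form branch points, gave no call among its 9 genes (0 of 9, limma, lowest adjusted p = 0.102). In limma, 1 gene was at an unadjusted p under 0.05, beside 5008 of the 26747 genes tested. Fold changes ran from -0.11 for Arpc1a to 0.24 for Actr3, and the 95% intervals of the 9 genes lay between -0.29 and 0.41. Actr3, one of the 2 actin-related subunits, had 6071, 6247 and 6499 in double knockout libraries, against 5153, 5523 and 5263 in controls (0.24 ± 0.08, limma adjusted p = 0.102). The genotypes did not overlap in Actr3, and the corrected fold change was 0.16 (adjusted p = 0.109). Arpc2, a core subunit and the most abundant per kilobase, had 4087, 4260 and 4472 in double knockout libraries, against 4602, 4293 and 4573 in controls, which overlapped (-0.07 ± 0.08, limma adjusted p = 0.682).

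The formins, which build unbranched filaments, gave no call either (0 of 9, limma, lowest adjusted p = 0.181). In limma, 3 genes were at an unadjusted p under 0.05, beside 5008 of the 26747 genes tested. Fold changes ran from -0.24 for Daam2 to 0.26 for Fmnl2, with 95% intervals between -0.44 and 0.53. Fhod3, a formin needed for sarcomere assembly in the heart, had 3770, 2786 and 3522 in double knockout libraries, against 3564, 3489 and 3667 in controls (-0.10 ± 0.10, limma adjusted p = 0.623). Double knockout 2 was the only low library, and without it the difference was 0.03. Daam1 was at 0.22 ± 0.09 and Diaph1 at -0.22 ± 0.09 (limma adjusted p = 0.196 and 0.185). The thymosins, the main monomer buffers, overlapped between genotypes. Tmsb4x had 9624, 13135 and 11621 in double knockout libraries, against 10493, 9617 and 10637 in controls (0.15 ± 0.10, limma adjusted p = 0.448), and Tmsb10 was at -0.02 ± 0.10 (limma adjusted p = 0.934; corrected, 0.13). Tmsb4x and Diaph2 lie on the X chromosome.

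The members' fold changes declined with GC content, as did those of protein-coding genes at large. The Spearman rank correlation between log2 fold change and GC content was -0.36 over the 40 members and -0.41 over 11905 protein-coding genes with means from 50 upwards, and 0.02 over the members in the corrected values. Evl, Pfn1 and Vasp have transcripts of 61.0%, 59.2% and 58.0% GC, among the highest of the members. Dstn, at 45.6% GC, fell and Gsn, at 57.1% GC, rose, against the slope, and both fold changes were larger once corrected (-0.57 for Dstn and 0.46 for Gsn). Genes share libraries, so these coefficients are descriptions and carry no test.

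**Figure D4:**
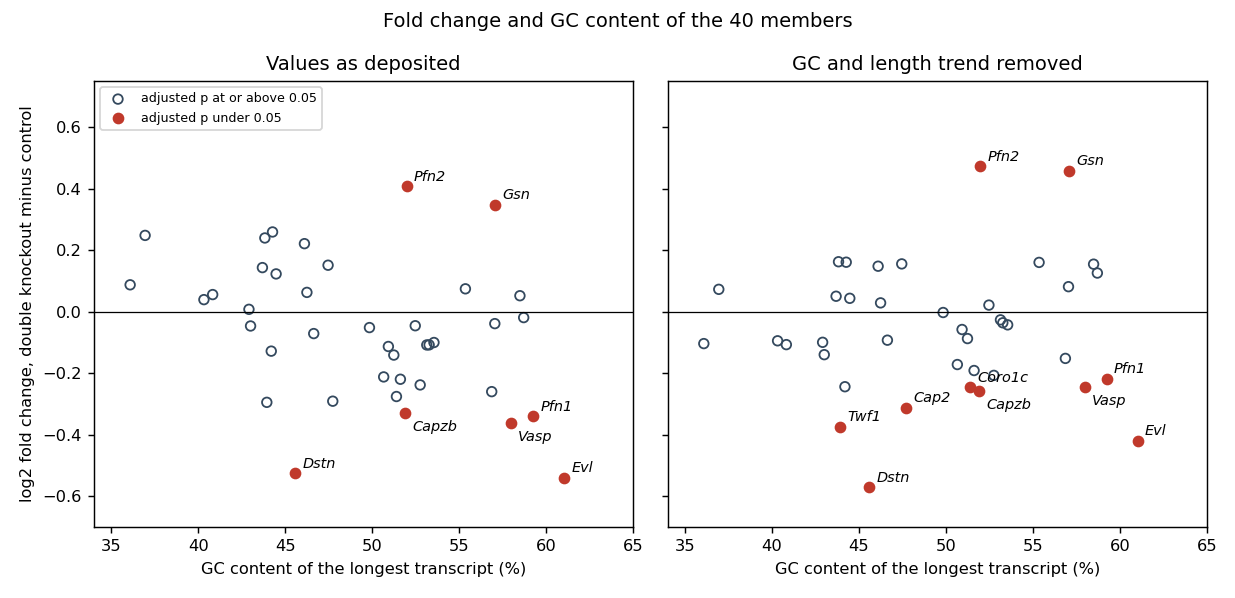
Log2 fold change (double knockout minus control) of the 40 members against the GC content of the longest transcript, from the deposited values (left) and the corrected values (right); filled points have an adjusted p under 0.05. The downward slope of the left panel (rank correlation -0.36) is gone in the right one (rank correlation 0.02), where Cap2, Twf1 and Coro1c join the called genes.

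A wider list of 75 actin regulators outside the 40 was read from the same fit. Of these, 74 were in the table, 7 of them under an older symbol. Here 4 rose and 3 fell (9.46% called, beside 4.86% of all genes tested and 8.06% of the genes at 200 or more). The share was near that of the more abundant genes, although this list also holds genes under 200, with group means down to 10.7. In the corrected values the same 7 were called together with Eps8, a capping and bundling protein named here after its values were seen, at -0.39 (adjusted p = 0.0268), against -0.36 ± 0.11 as deposited (limma adjusted p = 0.0758). Of these 7, Scin, Nckap1l and Flii were also called without the robust option. Scin, a calcium-activated severing protein of the gelsolin family, had 105, 125 and 126 in double knockout libraries, against 49, 60 and 61 in controls (1.06 ± 0.17, limma adjusted p = 0.000857). It was the only gene of both lists beyond a log2 fold change of 1. Nckap1l, the WAVE complex subunit of blood cells, had 128, 151 and 141 in double knockout libraries, against 89, 84 and 71 in controls (0.78 ± 0.16, limma adjusted p = 0.0053), a call lost without control 3 (adjusted p = 0.0555). The 5 macrophage and leukocyte markers summed to 375 to 451 in double knockout libraries, against 243 to 348 in controls; 1 of 5 rose (Ptprc), none was at 0, and their part in the Nckap1l value was not tested.

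Gmfb, a factor that removes Arp2/3 branches, had 2330, 2470 and 3077 in double knockout libraries, against 1855, 1992 and 1748 in controls (0.48 ± 0.10, limma adjusted p = 0.00719). Cd2ap, an adaptor that binds capping protein, had 1490, 1544 and 1866 in double knockout libraries, against 1270, 1310 and 1113 in controls (0.40 ± 0.10, limma adjusted p = 0.0218; corrected, 0.22). Cobl, a nucleator with several monomer-binding motifs, fell (258, 206 and 247 in double knockout libraries, against 341, 400 and 342 in controls; -0.61 ± 0.12, limma adjusted p = 0.00474). Supervillin (Svil), which ties filaments to membranes, had 8495, 7700 and 7883 in double knockout libraries, against 10570, 11030 and 9837 in controls (-0.38 ± 0.08, limma adjusted p = 0.0101). Flii, of the gelsolin family, had 2503, 2318 and 2363 in double knockout libraries, against 3042, 3027 and 2973 in controls (-0.33 ± 0.08, limma adjusted p = 0.0218). Corrected fold changes were smaller for Gmfb (0.33) and Flii (-0.24) and close to the deposited ones for Cobl (-0.59) and Svil (-0.38). The calls of Gmfb, Cd2ap, Svil and Flii were lost with double knockout 3 or control 1 left out, and those of Gmfb, Cd2ap and Flii also with control 3 left out (Flii with control 2 too), with adjusted p up to 0.189, and those of Gmfb, Cd2ap, Cobl and Svil without the robust option (adjusted p up to 0.122). With both libraries numbered 3 left out, 0 of the 7 were called (limma, with 13 of the 74 at an unadjusted p under 0.05, beside 2686 of 27639 genes). None of the 7 kinase and phosphatase genes that set cofilin's phosphorylation was called (limma, 0 of 7). At an unadjusted p under 0.05 (limma) there were 0, beside 5008 of the 26747 genes tested.

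Cell type markers were read beside these results. The 5 cardiomyocyte markers summed to 158659 to 182242 in double knockout libraries, against 230179 to 247664 in controls, with 1 of 5 called, Myh6, which fell. Myh6 carried most of that difference, with 90131, 75234 and 73150 in double knockout libraries, against 132314, 149354 and 137865 in controls. The other 4 cardiomyocyte markers were at -0.19 (Actn2) to -0.02 (Tnni3) on the log2 scale. Endothelial and endocardial markers summed to 15162 to 18286 in double knockout libraries, against 13736 to 17092 in controls, with 1 of 5 called (Emcn, which rose). Epicardial, mural and erythroid marker sums overlapped between genotypes, with 0 of 5 called in each, and no marker of any list was at 0. The part of these cells in the values of Dstn, Evl, Vasp, Pfn1, Capzb and Pfn2 was not tested.

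**Figure D5:**
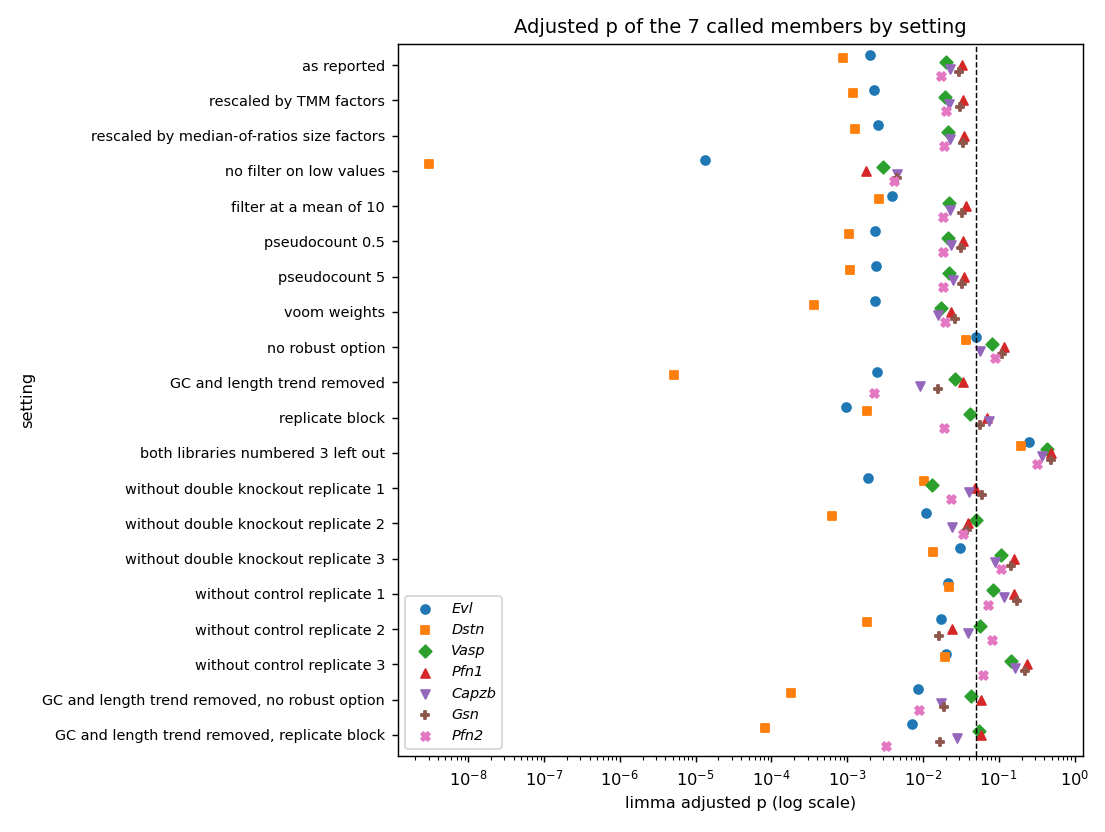
Adjusted p from limma (log scale) of the 7 called members under each of 20 settings, the reported one at the top; the dashed line is 0.05. Dstn stays left of the line in all settings but the one without both libraries numbered 3, and Evl also crosses it without the robust option (0.0501).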

How the data were processed

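RNA was sequenced in 3 double knockout and 3 control libraries. The strand setting of counting, read filters and the gene annotation behind the table are not stated in the labels. The deposited values are a score: gene read counts that the authors had normalised between libraries with a single factor each and then rounded, as judged from the values. Per the submitters' processing notes, Trimmomatic, STAR 2.4.2a, featureCounts 1.5.0, DESeq2 and DESeq were used with build mm10. Per the labels' protocols, 500 ng of RNA and 75 bp reads were used.

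As the values are not raw counts, log2(value + 1) was tested with limma 3.58.1 in R 4.3.3 (trend and robust options) on the 26747 genes with a mean of at least 1 in either genotype, with Benjamini-Hochberg adjustment over all of them. Corrected values subtract natural splines (5 degrees of freedom) of GC content and transcript length, fitted per library on protein-coding genes with means of 50 or more. Gene positions, lengths and GC content came from GENCODE (99.3% of gene IDs matched) and promoter windows from RefSeq. The 9 paralogue ratios had exact permutation tests. The code was tested on simulated data.

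Named are the 2 deleted genes, every member (per-library values for called members and for the most abundant of a role group without a call; others shown per library were chosen after their values were seen), and the called genes of the wider list. The members and lists were chosen with earlier results of these data known. Alternatives covered scaling, filter, pseudocount, weights, the robust option, GC and length, threshold, replicate block and left-out libraries. 1 gene of the wider list (Pdxp) was not analysed here. The result of 1 gene group of the wider list is not reported here.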

Additional observations from a re-analysis of the deposited data

How the results depend on the processing

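The lowest library value of a member was 239, and whether depth limited the calls was not tested. Without the robust option, 350 genes, 1 member (Dstn) and 3 genes of the wider list were called, against 1299, 7 and 7 as reported. At an adjusted p under 0.01 the counts were 515, 2 and 4. With both libraries numbered 3 left out they were 38, 0 and 0 (2686 of 27639 genes, 9 members and 13 genes of the wider list at an unadjusted p under 0.05, limma). With single libraries left out they ran from 420 to 1253 genes, 2 to 7 members and 3 to 10 genes of the wider list. The low ends came without double knockout 3 (496 genes), control 1 (481) or control 3 (420). With no filter on low values, 11 genes of the wider list were called. Same-numbered libraries of the 2 genotypes correlated at 0.05, 0.07 and 0.33, so the numbers were not taken as pairs, and only the libraries numbered 3 correlated best with their own number. With the replicate block, 1355 genes, 4 members and 6 genes of the wider list were called. The calls lost with the block were those of Pfn1 (adjusted p = 0.0711), Capzb (0.0734), Gsn (0.0574) and Flii (0.0672, limma). Corrected values with no robust option gave 9 members (1307 of 26747 genes) and with the replicate block 7 (1409 of 26747 genes). These 2 combinations were chosen after seeing the data. In the corrected values 7 of the 40 members changed sign, none of them called (Arpc1b, Actr2, Diaph2, Diaph3, Capza2, Tmsb10 and Twf2). Of the genes recomputed in every setting, Fhod3 and Twf2 changed sign. Fhod3 ran from -0.19 to 0.029 with single libraries left out. Twf2 ran from -0.13 to 0.051 with single libraries left out, and was at 0.081 in the corrected values (also without the robust option or with the block) and 0.075 without both libraries numbered 3. No paralogue ratio changed sign in the settings run (exact sign-flip p with the block of 0.25, the smallest possible, in 7 and 0.5 in Tmsb10 over Tmsb4x and Arpc1b over Arpc1a). The cause of these changes was not tested.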
